A study of Mus musculus with 6 samples.

Results

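Heat shock proteins and their J-domain partners were described in mouse left ventricle after ISO or saline treatment. The genes were chosen by symbol (Hspa, Hspb, Hsp90, Hspd1, Hspe1, Hsph1 and Dnaj genes) and by a mean of at least 1 FPKM over all 6 libraries. FPKM are fragments counted on a gene, divided by its length and by the library total. Of the 73 symbols that matched, 60 passed, out of 21989 genes in the table and 12269 that passed the same minimum. Hspb11 (mean 1.45 FPKM) and Dnajc16 (1.89 FPKM) lay just above the minimum, and Dnajc27 (0.840 FPKM) and Dnajb3 (0.610 FPKM) just below it. The other genes below it were Hspa1a, Hspa1b, Hspa1l, Hspb9, Dnajb7, Dnajb8, Dnajb13, Dnajc5b, Dnajc5g, Dnajc6 and Dnajc22. The rule itself uses symbols and the mean level, not a difference between the groups.

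The animals were male C57BL/6 mice of SPF grade (specific pathogen free). The ISO group received ISO at 10 mg/kg/d under the skin for 3 weeks, which the design text calls a heart failure model. The control group, titled sham in the labels, received normal saline in the same volume by the same route. ISO usually stands for isoproterenol, which stimulates beta-adrenergic receptors. No genotype other than the strain is named, and the sources used here give no age. Polyadenylated RNA of frozen left ventricle was sequenced, with 3 libraries per group. The labels call them biological repeats but do not tie a library to an animal. The p-values therefore reflect only the spread between these libraries, which may be partly technical.

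Molecular chaperones bind proteins that are not in their native fold. Small heat shock proteins (Hspb genes) hold unfolded clients without ATP, and several of them are abundant in heart muscle, where they associate with the sarcomere. HSP70 proteins fold clients in cycles of ATP hydrolysis. J-domain proteins (Dnaj genes) bring clients to HSP70 and start that hydrolysis, and HSP110 proteins release the ADP. HSP90 acts later, on clients such as kinases and steroid receptors, and the chaperonin pair Hspd1 and Hspe1 folds proteins in the mitochondrial matrix. Heat shock factor 1 (Hsf1) drives many of these genes through heat shock elements, and the unfolded protein response drives those of the endoplasmic reticulum (ER) through ER stress elements.

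Promoter sequences were searched for these elements. RefSeq windows of 300 bases (250 before to 50 after the start, GRCm38.p6) were matched for 47 of the 60 genes and searched on both strands. The other genes, among them Hspa8, Hspa9, Hsp90aa1, Hsp90ab1 and Hspb2, had no matched window and were not searched. Some genes had several windows, and a gene counted if any of them matched. The heat shock element was searched as the triplets GAA, TTC and GAA, each separated by any 2 bases, or their reverse complement. It was found for 4 of the 47 genes (8.51%), Hspd1, Hspe1, Dnajb6 and Hsph1, against 179 of 27025 genes in the promoter table (0.662%). Another window of Hspd1 held no match. The windows of the stress-inducible Hspa1a and Hspa1b, which are below the minimum, held none either. The search takes only this spacing close to the start, so a gene without a match may still carry such an element. The ER stress element, searched as CCAAT and CCACG separated by any 9 bases, was found for 3 genes (6.38%), Hspa5, Hsp90b1 and Dnajc3, against 37 of 27025 (0.137%). It includes a CCAAT box, which alone was found for 36.2% of these genes and 41.1% of all. TATAAA was in 8.51% and 15.7%. A match describes letters in a window and does not show that a factor binds there. The stretches below are shown because each holds an element of a named chaperone, written 5′ to 3′ on the gene's own strand with the element in capitals. Hspd1 and Hspe1 point away from each other and share the same 28 bases, where 2 overlapping matches form the capitals.
Hspe1, chr1:55088054-55088081, plus strand: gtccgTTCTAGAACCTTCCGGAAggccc
Hspd1, chr1:55088054-55088081, minus strand: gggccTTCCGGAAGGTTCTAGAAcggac
Dnajb6, chr5:29735847-29735869, plus strand: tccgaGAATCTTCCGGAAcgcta
Hspa5, chr2:34772020-34772048, plus strand: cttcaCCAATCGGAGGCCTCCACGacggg
Hsp90b1, chr10:86705528-86705556, minus strand: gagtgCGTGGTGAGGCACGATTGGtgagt
Dnajc3, chr14:118937787-118937885, plus strand: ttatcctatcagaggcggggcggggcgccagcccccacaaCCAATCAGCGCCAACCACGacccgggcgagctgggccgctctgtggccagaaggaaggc
In the Hsp90b1 stretch the element reads in the opposite direction, and the window of this gene held another match farther from the start.

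Library depth and composition differed within the groups. Library totals, worked out from the size of the smallest FPKM steps, were 2776152 to 9862363 reads, and saline 3 had the fewest. Across genes, saline 3 had a Pearson r of 0.788 to 0.830 with the other libraries, against at least 0.918 among the other 5. By a chi-square of their reads, ISO 1 and ISO 2 were the closest pair within a group, at 4.47 times what sampling gives. By r saline 1 and saline 2 were (0.973). The highest r of ISO 1 (0.967) was with a saline library, as ISO 2 and ISO 3 reached at most 0.962 and 0.948 with any library. All 6 were counted as separate samples. The muscle markers did not follow the tissue label evenly: Myl2, the ventricular light chain, had 2566, 526 and 9101 FPKM in saline 1, 2 and 3 and 1985, 1962 and 140.4 FPKM in ISO 1, 2 and 3. Myl7, the atrial light chain, was at 16664, 16049 and 7469 FPKM in saline and at 11551, 11487 and 8354 FPKM in ISO, above Myl2 in every library except saline 3. Scgb1a1, a secretory protein of airway club cells, had 200.9 FPKM in saline 3, 182 FPKM in ISO 3 and 0.869 to 13.2 FPKM in the other 4 libraries. The surfactant gene Sftpc of the same list followed it, at 14.3 FPKM in saline 3, 5.76 FPKM in ISO 3 and at most 0.965 FPKM elsewhere. Sftpb and Dnah5 were also highest in saline 3 and ISO 3, but at most at 0.230 and 0.0562 FPKM. The ciliated cell genes Foxj1, Tekt1 and Ccdc39 did not follow it: Foxj1 was at most 0.195 FPKM and Ccdc39 was at 0 in saline 3.

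The comparison asked which chaperone genes differ between ISO and saline ventricles. The 6 small heat shock proteins were all lower on average in ISO, with Hspb7 at 0.50 of its saline mean, while most J-domain genes, the cytosolic HSP70 Hspa8 and the HSP90 genes were at similar or slightly higher values. None of the 60 genes passed limma's moderated test with Benjamini-Hochberg adjustment over 12269 genes, and neither did any other gene (0 called, 0%; smallest adjusted p = 0.699). At an unadjusted p under 0.05 there were 2 of the 60, Hspb7 and Dnajc15, both lower, and none higher. Over all genes tested, 4.92% were higher and 1.39% lower at that level, or 6.31% in either direction. The 3 ISO and 3 saline libraries did not overlap for 7 genes that were higher in ISO (Dnaja1, Dnaja2, Dnajb6, Dnajc3, Dnajc11, Dnajc13 and Hspa8) and 3 that were lower (Hspb7, Dnajc15 and Dnajc24). Among all genes 12.8% were higher and 3.72% lower without overlap, or 16.5% in either direction. The 10 of 60 are therefore close to the share of all genes.

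The direction of the whole set depended on the scaling. As deposited, 36 of the 60 had a log2 fold change (ISO minus saline, on log2(FPKM + 1)) above 0 and 24 below, with a median of 0.04, while 68.1% of all genes were above 0 and 31.9% below, and their median was 0.20. After median-of-ratios scaling, 19 were higher and 41 lower, with a median of -0.18 against 0.01 for all genes. After quantile normalization 20 were higher and 40 lower. Without saline 3, 30 were higher and 30 lower, 7 were higher without overlap (18.3% of all genes) and 9 lower without overlap (9.61% of all genes). With sample quality weights, which gave saline 3 a weight of 0.0772, limma called 768 genes (6.26%), with 4.25% of all genes higher and 2.01% lower. These held 6 of the 60, all lower: Hspb1, Hspb3, Hspb7, Dnajb5, Dnajc19 and Dnajc19-ps. The pseudogene Dnajc19-ps shares sequence with Dnajc19 and had few reads, 54, 13 and 8 in saline and 6, 5 and 15 in ISO. In the plot of the log2 fold changes by class, the small heat shock proteins lie below the other classes of more than 2 genes in their median.

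**Figure D1:**
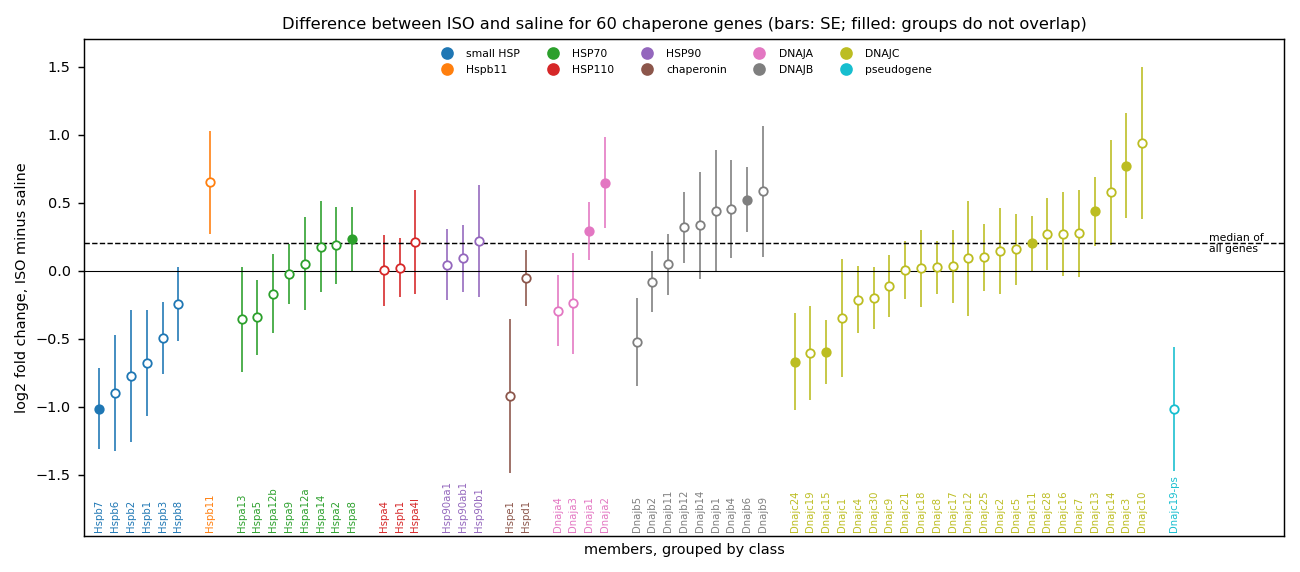
Log2 fold change (ISO minus saline, from limma on log2(FPKM + 1)) of each of the 60 genes, grouped by class on the x axis; bars are the SE, filled points are genes whose 3 saline and 3 ISO libraries do not overlap, and the dashed line is the median of all genes tested (0.20). All 6 small heat shock proteins lie below 0, and Dnajc10 is the highest point at 0.94.

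All 6 small heat shock proteins were lower on average in ISO, and limma called none of them as deposited. Hspb7, a heart and muscle chaperone that binds filamin and actin filaments, was at 456, 351 and 528 FPKM in saline and 256, 257 and 154 FPKM in ISO. Every ISO library lay below every saline library. Its log2 fold change was -1.02 (SE 0.30, limma adjusted p = 0.699), and the gene lies on chromosome 4 at 141420779 to 141425310. Hspb6, which is phosphorylated by cAMP-dependent protein kinase in heart muscle, was at 259.9, 169 and 413 FPKM in saline and 186, 174 and 86.6 FPKM in ISO. The groups overlapped, because saline 2 lay below ISO 1 and ISO 2, and the log2 fold change was -0.90 (SE 0.43).

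Hspb1 (HSP27), which caps actin filaments, was at 546, 332 and 208 FPKM in saline and 183, 179 and 278 FPKM in ISO. Saline 3 was the lowest saline library and ISO 3 the highest ISO library, so the groups overlapped through those libraries alone. Its log2 fold change was -0.68 with all libraries and -1.02 without saline 3. With the quality weights, which were lowest for saline 3 and ISO 3, it was -1.36 (limma adjusted p = 0.0172). Hspb8, which works with the co-chaperone Bag3 in the clearance of damaged sarcomere proteins, was at 172, 112 and 94.2 FPKM in saline and 105, 100.3 and 102 FPKM in ISO. It had the smallest difference of the class (-0.25, SE 0.27).

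Hspb2 and Hspb3, which form a complex with each other in muscle, are the less abundant members. Hspb2 was at 81.8, 52.7 and 108 FPKM in saline and 66.3, 63.1 and 21.4 FPKM in ISO (log2 fold change -0.77, SE 0.48). Hspb3 was at 25.2, 24.4 and 17.5 FPKM in saline and 16.7, 11.9 and 18.2 FPKM in ISO (-0.50, SE 0.26). Both overlapped, Hspb2 through saline 2 and Hspb3 through saline 3. The neighbour of Hspb2 is Cryab (alpha B-crystallin), the most abundant small heat shock protein of the heart, whose symbol the choice of genes does not cover. Cryab was at 1995, 803 and 951 FPKM in saline and 802, 785 and 349.7 FPKM in ISO. The groups did not overlap, but saline 2 and ISO 1 were within 2 FPKM of each other (log2 fold change -0.93, SE 0.47, limma adjusted p = 0.699). Cryab over Hspb2 was 24.4, 15.3 and 8.84 in saline and 12.1, 12.5 and 16.3 in ISO, so the neighbours did not keep 1 ratio. RefSeq places Hspb2 (chromosome 9, 50751072 to 50752354) within the span of Cryab, and the sources used here do not state whether counting used strand, so reads could be shared.

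As a class, the 6 had a median log2 fold change of -0.73, against 0.20 for all genes. All 6 were lower in the deposited values and by sign in each of the 16 alternative fits. For Hspb8 the fit without saline 1 gave -6.9e-05, which is no difference. The median of the class lay between -0.53 and -0.96 in the alternative fits. Without saline 3, 4 of the 6 were lower without overlap (Hspb1, Hspb3, Hspb7 and Hspb8), against 9.61% of all genes. Hspb11, a cilium transport protein with only the name in common, was at 1.91, 0.747 and 0.255 FPKM in saline and 2.27, 1.65 and 1.85 FPKM in ISO, and saline 3 had 3 reads for it.

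Heart muscle markers listed as ventricular moved in the same direction on average. All 10 of 10 were lower in ISO (31.9% of all genes), 3 of them without overlap (3.72% of all genes), and none was at 0. Unlike the rest, Pln and Ckm were higher in both ISO 1 and ISO 2 than in saline 1 and saline 2. The sum of the list was 29493 to 53573 FPKM in saline and 12697 to 23906 FPKM in ISO. In saline 2 most of it was Tnnt2, Tnni3 and Myh6 (12161, 5501 and 7295 FPKM), with Myl2 at 526 FPKM. The sum therefore does not stand for the ventricular light chain. Fibroblast markers (7 of 7) and macrophage markers (7 of 7) were higher, as were 68.1% of all genes. Their sums in saline and ISO were 575 to 1032 against 1520 to 1898 FPKM, and 228 to 414 against 448 to 660 FPKM. Red blood cell markers were higher for 6 of 6, with a median log2 fold change of 2.17 and sums of 3236 to 6683 FPKM in saline and 14036 to 29514 FPKM in ISO, without overlap. Their part in the values of the other genes, which FPKM divides by the same library total, was not tested. Heart muscle markers listed as atrial did not follow the ventricular ones. Of these 5, 4 had a log2 fold change above 0 and 1 below, and all 5 were below 0 without saline 3. Their sums overlapped, at 10424.4 to 26371.5 FPKM in saline and 15130.5 to 18047.9 FPKM in ISO. Fewer muscle cells and less RNA per muscle cell cannot be told apart in bulk tissue. Per 1000 FPKM of the ventricular markers, a ratio chosen after seeing the data, Hspb7 was at 11.99 ± 2.19 in saline and 11.3 ± 0.743 in ISO (SD, n = 3 each), and Hspb6 at 7.19 ± 1.27 and 7.36 ± 0.488. The other 4 had higher means in ISO on this scale, from Hspb1 (10.7 ± 6.59 and 12.4 ± 8.21) to Hspb8 (3.64 ± 1.805 and 5.5997 ± 2.14). On this scale the groups overlapped for all 6 small heat shock proteins and for Cryab. On the same scale Hspa8 was at 22.4 ± 9.18 in saline and 50.2 ± 21.7 in ISO, and Hsp90ab1 at 11.01 ± 1.61 and 22.8 ± 5.02, both without overlap. The marker sum was itself lower in ISO without overlap, so a gene at equal FPKM in both groups comes out higher here. In FPKM Hsp90ab1 overlapped (log2 fold change 0.09). The share of all genes without overlap on this scale was not computed. The part of the muscle markers in the small heat shock protein values was not tested.

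**Figure D2:**
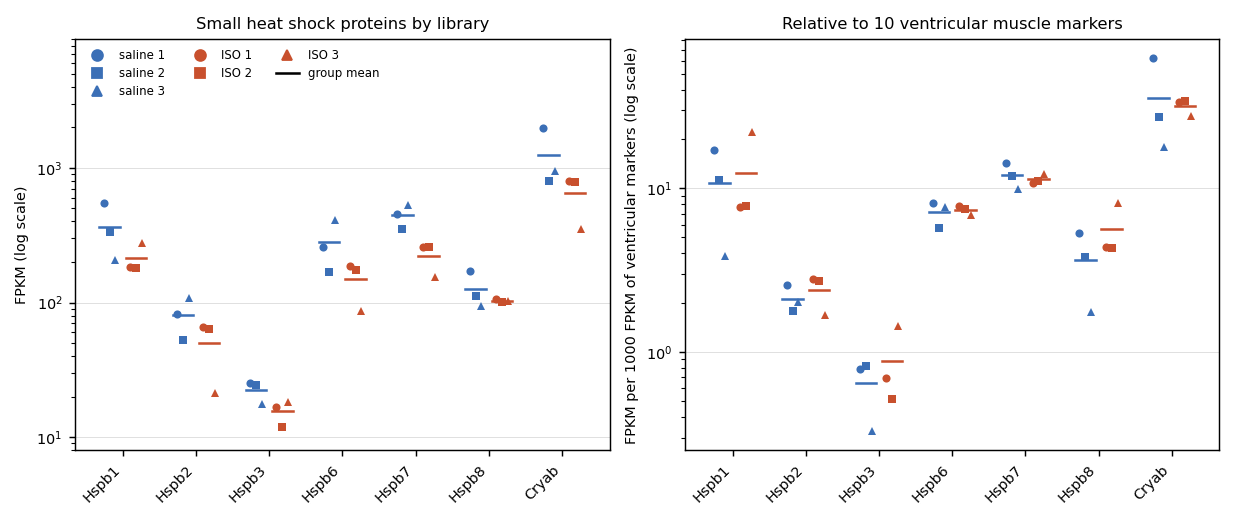
FPKM of the 6 small heat shock proteins and Cryab in each library (left, log axis) and the same divided by the summed FPKM of 10 ventricular markers, per 1000 FPKM (right, log axis); colours are groups, shapes are libraries and lines are group means. On the left Hspb7 and Cryab separate the groups, and on the right every gene overlaps.

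Among the HSP70 genes, Hspa8 dominated. Hspa8 (HSC70), the constitutive cytosolic HSP70, had the highest mean of the 60 genes (845 FPKM), and was at 826, 869.8 and 646 FPKM in saline and 903, 873 and 955 FPKM in ISO. The groups did not overlap, but saline 2 and ISO 2 differed by less than 4 FPKM, and the log2 fold change of 0.23 (SE 0.23, limma adjusted p = 0.720) was -3.4e-05 after median-of-ratios scaling. Hspa9 (mortalin), the HSP70 of the mitochondrial matrix, was at 89.9, 92.4 and 99.2 FPKM in saline and 99.6, 104 and 75.8 FPKM in ISO (log2 fold change -0.02, SE 0.22). Hspa2, best known from the testis, was at 2.39 ± 0.556 and 2.87 ± 0.689 FPKM (SD, n = 3 each). Hspa12a, Hspa12b, Hspa13 and Hspa14 had log2 fold changes from -0.35 to 0.18. Of the 8 HSP70 genes, 4 were higher and 4 lower, and 2 were higher after median-of-ratios scaling.

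The stress-inducible pair Hspa1a and Hspa1b was at 0 to 0.104 and 0 to 0.0795 FPKM. In saline 1 to 3 these were 1, 0 and 0 reads for Hspa1a and 2, 0 and 0 reads for Hspa1b, and in ISO 1 to 3 they were 1, 3 and 1 reads and 0, 4 and 5 reads. A count of 0 for Hspa1a in saline 3 allows up to 0.194 FPKM by 3 reads, counting error only. These values cannot be read as absence of the message. The length that the FPKM steps imply is 5578 bases for Hspa1a and 11208 bases for Hspa1b, or 1.99 and 3.99 times their RefSeq spans, whereas none of the 60 genes exceeded its span. Of 16017 genes compared, 74 exceeded 1.5 times their span, and 37 of them lie on chromosome 17, as this pair does. The transcripts of the pair also share sequence: 58.8% of the 50-base windows of Hspa1a and 62.3% of those of Hspa1b occur in the other. The part of either in the low values was not tested.

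The HSP110 genes, which exchange the nucleotide of HSP70, showed no difference beyond their spread. Hspa4 had means of 28.6 ± 4.11 in saline against 29.0 ± 7.21 FPKM in ISO, Hsph1 at 8.43 ± 0.691 and 8.59 ± 0.776 FPKM, and Hspa4l at 4.21 ± 2.08 and 4.71 ± 0.999 FPKM (SD, n = 3 each). Their log2 fold changes were 0.00, 0.02 and 0.21, and 2 of the 3 were lower after median-of-ratios scaling.

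Of the cytosolic HSP90 genes, Hsp90ab1, the constitutive form, was the second most abundant of the 60 genes. It was at 389, 346 and 491 FPKM in saline and 461, 477 and 363 FPKM in ISO, with a log2 fold change of 0.09 (SE 0.25). Hsp90aa1, the inducible form, was at 67.6, 84.4 and 73.9 FPKM in saline and 57.2, 86.3 and 93.7 FPKM in ISO (0.04, SE 0.26). The groups overlapped in both genes. All 3 HSP90 genes, with Hsp90b1, were slightly higher as deposited and slightly lower after median-of-ratios scaling (-0.19 for Hsp90aa1, -0.14 for Hsp90ab1 and -0.01 for Hsp90b1).

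The chaperonin pair is transcribed in opposite directions from the shared promoter printed above, yet its values parted in saline 3. Hspd1 (HSP60) was at 54.4, 55.7 and 46.4 FPKM in saline and 48.2, 55.0 and 47.7 FPKM in ISO. Hspe1 (HSP10), its lid, was at 119, 88.6 and 429 FPKM in saline and 80.3, 76.5 and 108 FPKM in ISO. Hspd1 stayed in a narrow range in all 6 libraries, while the Hspe1 value of saline 3, from 915 reads (95% exact Poisson interval 402 to 458 FPKM, counting error only), was far above the rest. Hspe1 over Hspd1 was 2.19, 1.59 and 9.25 in saline and 1.67, 1.39 and 2.26 in ISO. The log2 fold change of Hspe1 was -0.92 (SE 0.56) with all libraries and -0.23 without saline 3, and that of Hspd1 was -0.05 (SE 0.21). RefSeq places their spans with a small overlap (Hspd1 to 55088243, Hspe1 from 55088148 on chromosome 1).

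Of the ER chaperones, the 3 genes in which an ER stress element was found parted in saline 3. Hspa5 (BiP), the HSP70 of the ER, was at 140.3, 126 and 206 FPKM in saline and 113, 151 and 104 FPKM in ISO (log2 fold change -0.34, SE 0.28, and -0.13 without saline 3). Hsp90b1 (GRP94), the ER form of HSP90, was at 185, 126 and 58.2 FPKM in saline and 127, 139 and 121 FPKM in ISO (0.22, SE 0.41, and -0.24 without saline 3). Dnajc3 (P58IPK), a J-domain partner of BiP, was at 10.6, 7.97 and 3.26 FPKM in saline and 11.8, 12.5 and 11.8 FPKM in ISO. In saline 3, Hspa5 was at its highest of the 6 libraries and Hsp90b1 and Dnajc3 at their lowest. In the other libraries all 3 genes were higher in saline 1 than in saline 2 and highest of the ISO group in ISO 2. Dnajc3 did not overlap (0.77, SE 0.38, limma adjusted p = 0.699), also without saline 3, where its log2 fold change was 0.35.

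Several J-domain proteins of the ER were likewise lowest in saline 3. Dnajc10 (ERdj5), a disulfide reductase, was at 19.6, 13.8 and 3.19 FPKM in saline and 19.5, 20.3 and 19.6 FPKM in ISO. Its log2 fold change of 0.94, the highest of the 60, was 0.25 without saline 3, where the value rests on 36 reads (95% exact Poisson interval 2.23 to 4.41 FPKM). Dnajb9 (ERdj4), a BiP partner that the unfolded protein response induces, was at 21.1, 11.2 and 4.64 FPKM in saline and 17.1, 18.8 and 13.3 FPKM in ISO (0.58, and 0.07 without saline 3). Dnajb11 (ERdj3), another BiP partner, was at 16.9 ± 2.37 and 17.4 ± 2.01 FPKM (SD, n = 3 each). Dnajc1 and Hspa13 were instead highest in saline 3, at 18.9 and 8.34 FPKM, against 7.11 and 6.26 FPKM and 3.18 and 3.43 FPKM in saline 1 and 2. Of the 14 ER genes, 11 were higher in ISO with a median of 0.24, which was 0.09 without saline 3, and 7 were higher after median-of-ratios scaling. The remaining ER genes, Dnajb12, Dnajb14, Dnajc14, Dnajc16, Dnajc18 and Dnajc25, had log2 fold changes of 0.02 to 0.58.

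**Figure D3:**
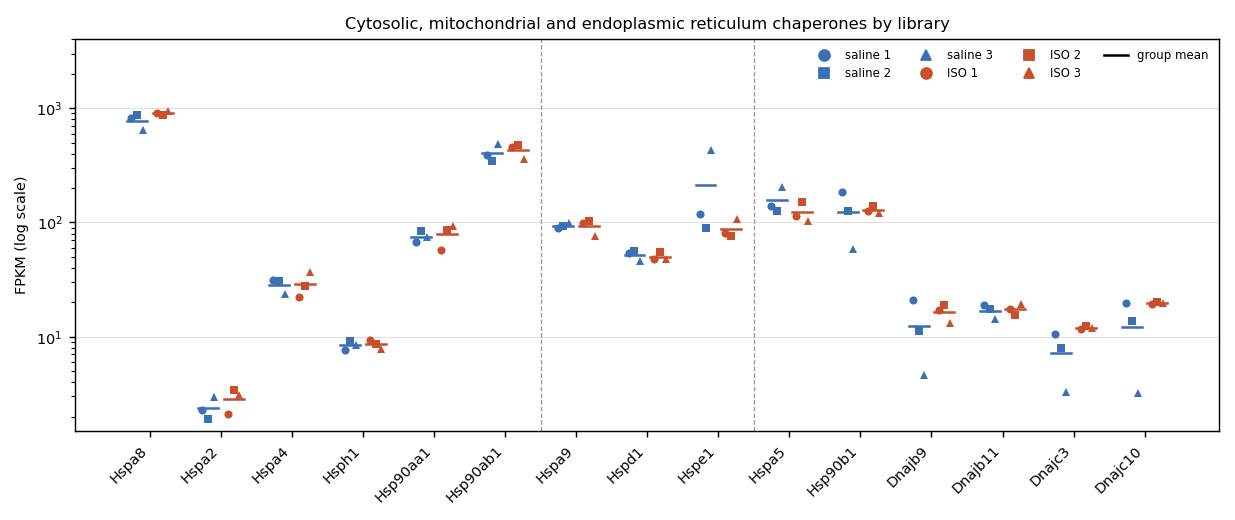
FPKM (log axis) of 15 HSP70, HSP110, HSP90, chaperonin and ER chaperone genes in each library, with dashed lines between cytosolic, mitochondrial and ER genes; colours are groups, shapes are libraries and lines are group means. The saline 3 triangle is far above the other libraries in Hspe1 (429 FPKM) and below them in Hsp90b1, Dnajb9, Dnajc3 and Dnajc10, while the 3 ISO libraries of Dnajc3 and Dnajc10 lie close together.

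Of the mitochondrial genes, 7 of 8 were lower in ISO, with a median log2 fold change of -0.22, and all 8 were lower after median-of-ratios scaling. Without saline 3, 5 of 8 were lower with a median of -0.10, and with the quality weights 5 of 8 with a median of -0.12. Dnajc15, a J-domain protein of the protein import motor in the inner membrane, was at 71.2, 72.2 and 100.1 FPKM in saline and 59.8, 51.2 and 47.6 FPKM in ISO. The groups did not overlap, with or without saline 3 (log2 fold change -0.60, SE 0.24, limma adjusted p = 0.699). Dnajc19, a related import motor protein, was at 16.7, 12.1 and 19.5 FPKM in saline and 8.80, 7.07 and 16.01 FPKM in ISO (-0.61, SE 0.34), and overlapped through ISO 3. Its pseudogene Dnajc19-ps was at 10.3, 3.87 and 5.42 FPKM in saline and 1.53, 1.82 and 5.02 FPKM in ISO. As 64.6% of the 50-base windows of the pseudogene occur in Dnajc19, the reads of both are uncertain. Dnajc11, which binds the MICOS complex of the cristae, was the mitochondrial gene that was higher, at 11.5, 12.05 and 11.7 FPKM in saline and 13.5, 14.1 and 13.4 FPKM in ISO. Its groups were tight and did not overlap as deposited, and its log2 fold change of 0.20 was -0.01 after median-of-ratios scaling. Dnaja3 (Tid1) was at 18.2, 16.6 and 39.7 FPKM in saline and 23.0, 20.5 and 15.1 FPKM in ISO, with saline 3 the highest. Dnajc30 had a log2 fold change of -0.20.

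Cytosolic J-domain proteins of class A, the general partners of HSP70, split. Dnaja2 was at 73.3, 59.6 and 31.2 FPKM in saline and 73.8, 90.2 and 80.8 FPKM in ISO. Saline 1 and ISO 1 were within 1 FPKM of each other, so the groups were apart by little (log2 fold change 0.65, SE 0.34, and 0.30 without saline 3). Dnaja1 was at 21.3, 22.8 and 19.3 FPKM in saline and 23.7, 25.03 and 29.9 FPKM in ISO (0.29, SE 0.21), also without overlap. Dnaja4, a gene of heart and muscle, was at 37.4, 39.8 and 24.7 FPKM in saline and 31.1, 26.2 and 24.0 FPKM in ISO (-0.29, SE 0.26).

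Class B held genes on both sides of 0, with 7 of 9 higher as deposited (median log2 fold change 0.33), 6 after median-of-ratios scaling, 5 without saline 3 (median 0.0062) and 4 without saline 3 and ISO 3. Dnajb6, which suppresses protein aggregation and is known from muscle disease, was at 10.6, 15.7 and 12.6 FPKM in saline and 16.9, 18.3 and 21.5 FPKM in ISO. Its groups did not overlap, and the log2 fold change was 0.52 (SE 0.24, limma adjusted p = 0.699) and 0.51 without saline 3. Its printed stretch holds a heat shock element. Dnajb5 was at 31.8, 45.7 and 19.2 FPKM in saline and 19.98, 21.3 and 21.3 FPKM in ISO. It overlapped through saline 3 (-0.52, SE 0.33), and without that library was at -0.84 without overlap. Dnajb1 (HSP40), the main partner of HSP70 in the heat shock response, was at 8.11, 14.7 and 3.68 FPKM in saline and 8.61, 11.1 and 13.5 FPKM in ISO (0.44, and -0.01 without saline 3). Dnajb4 was at 20.6, 18.1 and 8.41 FPKM in saline and 18.1, 18.8 and 25.4 FPKM in ISO (0.46, and 0.09 without saline 3). Dnajb2 was at 25.8 ± 2.85 and 24.4 ± 3.56 FPKM (SD, n = 3 each).

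The larger class C holds proteins with a J domain and otherwise unlike parts. Dnajc13 (RME-8), an endosomal protein, was at 6.58, 6.41 and 4.51 FPKM in saline and 6.80, 8.80 and 9.07 FPKM in ISO (log2 fold change 0.44, SE 0.25), without overlap. Dnajc24, which takes part in diphthamide synthesis, was at 3.55, 3.31 and 4.81 FPKM in saline and 2.38, 0.972 and 3.27 FPKM in ISO (-0.67, SE 0.36), also without overlap, although saline 2 and ISO 3 were within 0.1 FPKM. Dnajc5 (cysteine string protein), a chaperone of synaptic and secretory vesicles, was at 15.7 ± 4.22 and 17.2 ± 0.159 FPKM (SD, n = 3 each). Dnajc8, a splicing-associated protein, varied least, at 54.9, 52.5 and 53.0 FPKM in saline and 53.6, 55.9 and 53.7 FPKM in ISO. The ribosome-associated Dnajc2 and the HSP70 and HSP90 adaptor Dnajc7 had log2 fold changes of 0.14 and 0.27. Dnajc4, Dnajc9, Dnajc12, Dnajc17, Dnajc21 and Dnajc28 had values from -0.21 to 0.27. Over all 36 coding J-domain genes, 25 were higher and 11 lower with a median of 0.12, and 15 were higher and 21 lower after median-of-ratios scaling. Without saline 3, 22 were higher and 14 lower with a median of 0.044.

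Saline 3 set the extremes of many of these genes. It was the highest library for 16 of the 60 and the lowest for 25, against 22.4% and 52.9% of all genes. Long genes were the lower ones in this library: the median log2 difference between saline 3 and the mean of saline 1 and 2 was -0.02 for the 17 genes of up to 2000 bases, -0.15 for the 24 of over 2000 and up to 4000 bases and -0.60 for the 19 longer ones. Over all genes, those of at least 5430 bases had a median of -0.53 from the gene mean in saline 3, and those of at most 2082 bases a median of 0.05. Across the 60 genes, which share libraries and are not independent, the log2 fold change also had a Pearson r of 0.54 with log2 length, against 0.15 for all genes. Without saline 3 these were 0.50 and -0.01. The part of length in the differences between classes was not tested. The small heat shock proteins had a median length of 1235 bases, against 2810.5 bases for the 60 genes. Hspb7, at 2768 bases, was close to the median of the 60.

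**Figure D4:**
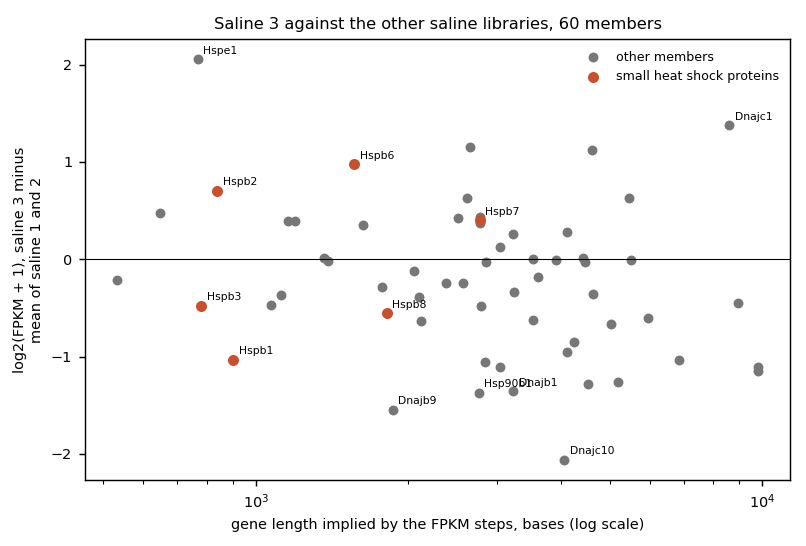
Each point is 1 of the 60 genes, with the gene length implied by the FPKM steps in bases (x, log axis) and the difference in log2(FPKM + 1) between saline 3 and the mean of saline 1 and 2 (y); small heat shock proteins are coloured. Hspe1 is the highest point (2.05) and Dnajc10 the lowest (-2.06), and the small heat shock proteins lie on both sides of 0.

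Regulators and partners of the chaperones, from lists chosen beside these genes, gave 0 genes called in any list by limma with equal weights. With the sample quality weights limma called 3 of their genes, Hsf2 (adjusted p = 0.0357) and Pfdn2 (adjusted p = 0.0402) lower and Cct4 (adjusted p = 0.0295) higher. The lists held 4, 13, 17, 13, 19, 9, 1 and 12 tested genes, and 6.26% of all genes were called with these weights. The 3 calls are therefore not above the share of all genes. Hsf1, the main heat shock factor, was at 26.5, 38.7 and 24.4 FPKM in saline and 26.5, 26.2 and 38.6 FPKM in ISO (log2 fold change 0.03, SE 0.28). Of the 4 regulators, Hsf4 (0.33) and Hsf1 were higher and Hsf2 (-0.45) and Hsbp1 (-0.27), an HSF1 inhibitor, lower, all with overlap. Of the 13 HSP70 exchange factors and co-chaperones, 9 were higher as deposited, 5 after median-of-ratios scaling and 7 without saline 3. Sil1, the exchange factor of BiP, was at 6.67 ± 0.358 and 8.93 ± 1.81 FPKM (SD, n = 3 each). Bag5, an exchange factor of HSP70, was at 10.3 ± 0.828 and 13.2 ± 1.87 FPKM. Both were higher without overlap, against 12.8% of all genes. Bag2 (-0.79) and Hyou1 (-0.47), an HSP110 relative of the ER, overlapped.

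Among 17 measured HSP90 co-chaperones, 10 were higher as deposited, 4 after median-of-ratios scaling and 7 without saline 3. Tomm34, Ppid and Sugt1 were higher without overlap, against 12.8% of all genes. Tomm34, which links HSP70 and HSP90, had means of 17.6 ± 2.68 in saline against 24.8 ± 1.43 FPKM in ISO (SD, n = 3 each). Ppid (cyclophilin 40) was at 31.4, 31.4 and 4.30 FPKM in saline and 35.8, 35.1 and 34.2 FPKM in ISO, so its log2 fold change of 1.02 was 0.15 without saline 3. Fkbp4, which serves steroid receptors, was at 109.5 ± 26.2 and 72.7 ± 18.9 FPKM.

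Of the 13 cytosolic chaperonin and prefoldin genes, 7 were higher and 6 lower, and 4 were higher after median-of-ratios scaling and 9 without saline 3. Cct4, a subunit of the TRiC chaperonin, was at 49.6, 46.5 and 54.2 FPKM in saline and 78.2, 78.1 and 57.4 FPKM in ISO, without overlap. The prefoldin subunit Pfdn2 was at 81.5, 80.9 and 322 FPKM in saline and 48.7, 39.1 and 79.3 FPKM in ISO, lower without overlap and highest in saline 3. Vbp1, another subunit, had a log2 fold change of 0.89 with overlap.

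Of 19 ER folding and unfolded protein response genes, 13 were higher as deposited, 8 after median-of-ratios scaling and 8 without saline 3, and Calr (calreticulin) alone did not overlap, at 232, 194 and 197 FPKM in saline and 136, 179 and 193 FPKM in ISO. Sel1l (0.71) and Eif2ak3 (0.47) were at 0.08 and 0.09 without saline 3. Of 9 mitochondrial folding genes, 6 were higher as deposited, 4 after median-of-ratios scaling and 5 without saline 3. Trap1, the mitochondrial HSP90, was at 34.1 ± 6.61 and 24.6 ± 2.48 FPKM (SD, n = 3 each). Clpp, a matrix protease subunit, was at 68.6 ± 3.98 and 55.2 ± 6.94 FPKM. Both were lower without overlap, while Yme1l1 (0.56) overlapped. Among all genes 3.72% were lower without overlap. Of 12 immediate early genes, which rise when tissue is handled or stimulated, 8 were higher as deposited, 6 after median-of-ratios scaling and 5 without saline 3, all with overlap: Ier3 was at 0.78, Jun at 0.43 and Nr4a1 at -0.78. Fos was at 57.1, 11.3 and 8.43 FPKM in saline and 18.5, 19.7 and 34.9 FPKM in ISO, so saline 1 was the highest library.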

How the data were processed

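RNA-seq of polyadenylated RNA from left ventricle covered 3 saline and 3 ISO libraries. The authors deposited FPKM per gene symbol. Per the submitters' processing notes the tools were HISAT2 2.1.0, Cufflinks 2.2.1, HTSeq 0.7.2, DESeq, fastp 0.20.0 and CASAVA 1.8, on GRCm38; their roles are not stated. Annotation release and strand setting are not given in the sources used here. FPKM divides by the library total, so abundant genes lower all others.

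Genes with a mean of at least 1 FPKM (12269) were tested as log2(FPKM + 1) by limma 3.58.1 (R 4.3.3; mean-variance trend in the moderated test, a group term alone), with Benjamini-Hochberg adjustment at 0.05 over all of them. Fold changes on this scale understate low genes. Library totals, whole reads and gene lengths were recovered from the FPKM steps (100% of 16816 genes whole within 0.01 reads). The reads gave the intervals and an alternative fit, limma-voom. On simulated data, reads were exact for 99.13% of 16621 genes. Limma, tested on simulated data over 12269 genes, called 66% of 100 genes changed 4-fold and 96% of 100 changed 16-fold. Symbols were matched to RefSeq for 60 of 60 genes. Tables used Python 3.11.15, pandas 2.3.3 and scipy 1.17.1.

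Members, lists and tests were chosen with earlier results of these data known. Named genes were a fixed set of chaperones with Hsf1 and Cryab, the 5 smallest p in each direction, genes without overlap, the 5 with the largest range between libraries, the genes nearest the minimum, and up to 3 of each list by p. Others named (Fos, Bag5, Sugt1, Dnajc8 and the remaining members) were chosen after their values were seen. Protein sequences were not used here. Alternatives were pseudocounts of 0.1 and 0.5, no filter and a minimum of 5 FPKM, median-of-ratios scaling, quantile normalization, sample quality weights, a replicate block, limma-voom and each library left out. Leaving out saline 3 and ISO 3 together and levels per ventricular marker were added after seeing the data.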

Additional observations from a re-analysis of the deposited data

How the results depend on the processing

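Limma called 0 genes and 0 of the 60 chaperones as deposited, and the other fits also called 0, with 2 exceptions. Sample quality weights called 768 genes and 6 of the 60. Leaving out each library in turn gave 0 to 16 genes, the 16 without ISO 1, and 0 of the 60. The median log2 fold change of the 60 was 0.04 as deposited, -0.18 after median-of-ratios scaling and -0.13 after quantile normalization. Across genes, deviations of same-numbered libraries from their group means had r of 0.013, -0.15 and -0.025, so the numbers were not taken as pairs, although saline 3 and ISO 3 both held high Scgb1a1. With the replicate block 0 genes were called, the median stayed 0.04, and 1 of the 60 had an unadjusted p under 0.05. The cause of the changes below was not tested. Depth limits the low genes most, as 1 read on 1 kilobase is 0.360 FPKM in saline 3.

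Of the genes named by rule, those below changed direction, none past the threshold in the fits compared. Other members changed direction too and are not listed. After median-of-ratios scaling, for example, the number of the 60 that were higher went from 36 to 19. After median-of-ratios scaling Hspa8 was at -3.4e-05, Hspa4 at -0.22, Hsph1 at -0.19, Hsp90aa1 at -0.19, Hsp90ab1 at -0.14, Hsp90b1 at -0.012, Dnajb11 at -0.17, Dnajc5 at -0.059, Dnajc11 at -0.014 and Hsf1 at -0.19. After quantile normalization Hspa2 was at -0.077, Hspa4 at -0.13, Hspa4l at -0.064, Hsph1 at -0.21, Dnajb11 at -0.13, Dnajc5 at -0.043, Dnajc11 at -1.5e-05 and Hsf1 at -0.098. With sample quality weights Hspa5 was at 0.014, Hspa9 at 0.16, Hspa4 at -0.18, Hspa4l at -0.082, Hsp90b1 at -0.28, Dnajb4 at -0.046, Dnajb11 at -0.19, Dnajc5 at -0.089, Eif2ak3 at -0.081, Jun at -0.037 and Hsf1 at -0.11. Without saline 3 and ISO 3 together Hspa9 was at 0.16, Hspa4 at -0.29, Hspa4l at -0.016, Hsp90aa1 at -0.10, Hsp90b1 at -0.20, Dnajb1 at -0.15, Dnajb4 at -0.062, Dnajb11 at -0.14, Dnajc5 at -0.071, Hsbp1 at 0.083, Sel1l at -0.036, Eif2ak3 at -0.081 and Hsf1 at -0.27. Leaving out 1 library at a time gave -0.0087 to 0.87 for Dnajb1, -0.064 to 0.13 for Dnajb11, -0.065 to 0.31 for Dnajc5, -0.15 to 0.23 for Hsf1, -0.093 to 0.26 for Hsp90aa1, -0.020 to 0.23 for Hsp90ab1, -0.24 to 0.58 for Hsp90b1, -0.17 to 0.17 for Hspa4, -0.17 to 0.46 for Hspa4l, -0.11 to 0.12 for Hspa9 and -0.032 to 0.086 for Hsph1.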
